A study of Mus musculus with 11 samples.

Results

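Keratins, the proteins of the cornified envelope and the desmosomal proteins build the mechanical scaffold of epithelia, and the genes examined here were taken by name from the list of genes that the study found to differ between AOM/DSS and naive mouse colon. Names beginning with Krt, Krtap, Krtdap, Sprr, Lce, Dsg, Dsc, Pkp, Tgm, Sbsn, Evpl or Klk were taken, together with Dsp, Jup, Perp, Ppl, Ivl, Lor, Mt4 and Trp63. Of the 7868 genes listed, 98 carried such a name. The same names fit 220 genes of the mouse annotation GENCODE M21, and the other 122 are not in the list, which holds only genes with an unadjusted p of 0.05 or less in the authors' test. A gene that is missing from it was therefore not called unchanged. Since the list was already limited in this way, no test was run on these genes, and the words higher and lower describe the authors' group means.

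Keratins form filaments from a type I and a type II partner. Single-layered epithelia such as the lining of the colon use the simple keratins Krt8, Krt18, Krt19 and Krt20, whereas layered epithelia such as epidermis, oesophagus and the anal canal use Krt5 with Krt14 in their basal layer and other pairs above it, and hair shafts use the hair keratins with keratin-associated proteins. The class called hair keratins below also takes in keratins of follicle layers around the shaft, such as Krt25, Krt71 and Krt75. As cells of a layered epithelium cornify, transglutaminases cross-link loricrin, involucrin, small proline-rich and late cornified envelope proteins beneath the membrane. Desmosomes anchor keratin filaments at cell contacts, and kallikreins are serine proteases, several of which cleave desmosomal proteins when the outermost cells are shed.

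Bulk RNA was sequenced from colon tissue of 11 female wildtype mice, 7 of them AOM/DSS and 4 naive. The carcinogen azoxymethane (AOM) was injected into the peritoneum once at 10 mg/kg, and from day 7 the mice drank 1.5% dextran sodium sulfate (DSS), which injures the colon lining, in 3 cycles of 5 days with 16 days of recovery after each. Tissue was taken on day 70, and naive mice were kept for the same time with neither agent. The labels give neither strain nor age; the study lists its wild-type animals as C57BL/6J and gives ages for its animals in general and for mice of other genotypes in this model, but not for these samples. The table calls the AOM/DSS samples tumor and the naive samples full-thickness colon, whereas the study elsewhere describes the tumors as full-thickness as well, and how the tissue was dissected for RNA is not stated.

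Values are the authors' group means in CPM, the reads of a gene scaled to a library total of 1000000. The libraries were made from the 3′ end of each mRNA, so that a transcript gives reads from 1 place whatever its length. Of the low means searched, 866 of 1392 in AOM/DSS and 1772 of 3240 in naive were sums of whole reads, and the rest were not. From the lowest of these sums the depth of each library could be recovered. It ran from 8752000 to 10837000 reads in the 7 AOM/DSS libraries and from 7478000 to 9345000 reads in the 4 naive libraries. A gene listed at 0 in naive had no read in any of the 4 libraries, which allows a level of up to 0.0879 CPM (3 reads over the 4 libraries together, counting error only). No SD accompanies the deposited means, and n is 7 and 4 throughout. A gene was called higher or lower where the ratio of the means, with 1 CPM added to each, was at least 2 in either direction.

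Most of these genes were higher in AOM/DSS colon, and the most abundant of the colon's own keratins were not. Of the 98 genes, 68 (69.4%) were higher past 2-fold, against 20.9% of all listed genes. In bulk tissue, more cells that carry such RNA and more of it per cell cannot be told apart. Only 2 (2.04%), Tgm3 and Klk1, were lower past it, against 9.75% of all listed genes, and 28 lay within 2-fold. The AOM/DSS mean was above the naive mean for 92 of the 98, against 4507 of all 7868 listed genes. The median log2 ratio was 1.59, beside 0.36 over all listed genes. Naive colon had no reads for 57 of the 98 (58.2%), against 6.35% of all listed genes. These 57 could not have a mean below naive and could never be called lower, so they could differ in 1 direction only. This limits what the counts of 92, 68 and 2 and the median show, also beside those of all listed genes. None of the 98 was listed at 0 in AOM/DSS, but only 69 of all 7868 listed genes were. Among the 24 genes at 1 CPM or more in both groups, 17 were higher, 2 were lower and the median log2 ratio was 1.44, beside 0.30 over the 6073 listed genes of that kind. Over all listed genes the split was 1641 higher and 767 lower, and it became 1123 higher and 1699 lower once their median was set to 0, while the 98 genes then stood at 55 higher and 4 lower. Just past the limit were Tgm2 (ratio with 1 added 2.08) and, with no naive reads, Krt71 and Krt34 at 1.097 and 1.15 CPM in AOM/DSS. Just short of it were Dsc2 (ratio with 1 added 1.86) and, with no naive reads, Dsg1a and Sprr2g at 0.935 and 0.829 CPM in AOM/DSS.

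**Figure D1:**
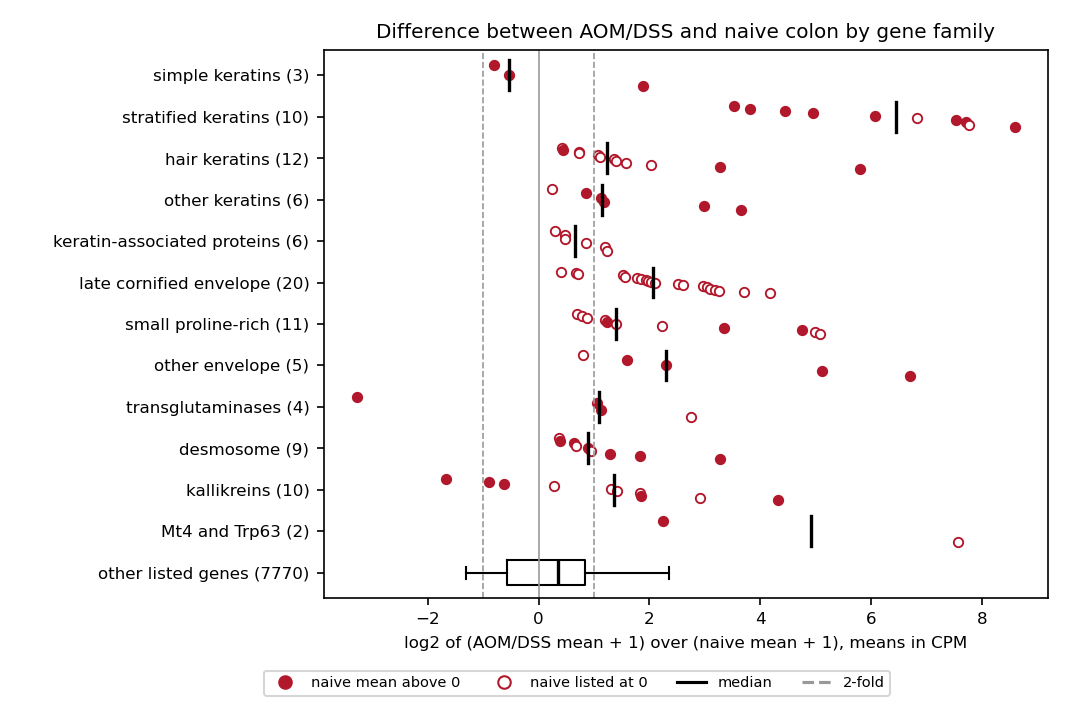
Each point is 1 gene, placed by the log2 ratio of the AOM/DSS mean to the naive mean with 1 CPM added to each, and the rows are gene families with the number of genes in brackets. Open points had no naive reads, black lines are medians, and the bottom row gives the other 7770 listed genes as a box (quartiles) with whiskers from the 5th to the 95th percentile. The 10 listed stratified keratins all lie right of the 2-fold line, with a median of 6.44, while Krt8 and Krt19 lie left of 0.

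Krt8 and Krt19 had the highest means of the 98 genes in both groups. Krt8, the type II keratin of simple epithelia, averaged 2527 CPM in AOM/DSS and 3662 CPM in naive colon, a ratio of 0.690. Krt19, a small type I keratin found in many epithelia, averaged 1679 CPM in AOM/DSS and 2947 CPM in naive colon (ratio 0.570). Both means were lower in AOM/DSS, neither past 2-fold. Krt7, a type II keratin of ducts, urothelium and transitional epithelia, ran the other way, with 275 CPM in AOM/DSS and 73.9 CPM in naive colon (ratio 3.72). Krt18 and Krt20, the type I keratins that complete the colonic set, were not in the list.

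Of 18 annotated keratins of stratified epithelia 10 were listed, and the other 8 were not. All 10 listed were higher, and their means spanned 11.4 to 440 CPM in AOM/DSS. Krt13, which with Krt4 fills the upper layers of moist stratified linings, averaged 440 CPM in AOM/DSS and 0.148 CPM in naive colon. Krt4 averaged 219 CPM in AOM/DSS and 0.0536 CPM in naive colon. With 1 CPM added the ratios were 385 for Krt13 and 209 for Krt4, and in naive colon this partner pair stood near the limit of detection.

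The basal pair was higher as well. Krt5 averaged 233 CPM in AOM/DSS and 0.266 CPM in naive colon, a ratio of 185 with 1 added. Krt14 averaged 215 CPM in AOM/DSS and 2.21 CPM in naive colon (ratio 97.1). Krt15, another basal type I keratin, stood at 47.1 CPM in AOM/DSS and 1.22 CPM in naive colon (ratio 38.7). Krt10, the type I keratin of the spinous layer of epidermis, had the highest naive mean of the group, with 385 CPM in AOM/DSS and 11.5 CPM in naive colon (ratio 33.5). Its usual partner Krt1 was not in the list.

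Keratins that epidermis makes after wounding and in its appendages stood alongside them. Krt6a averaged 216 CPM and Krt6b 112 CPM in AOM/DSS, and neither had a read in naive colon. These 2 genes are near copies, so the split of reads between them is uncertain. Krt17 averaged 37.1 CPM in AOM/DSS and 1.70 CPM in naive colon (ratio 21.8). Krt16 averaged 11.4 CPM in AOM/DSS and 0.0804 CPM in naive colon, a ratio of 11.4 with 1 added.

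**Figure D2:**
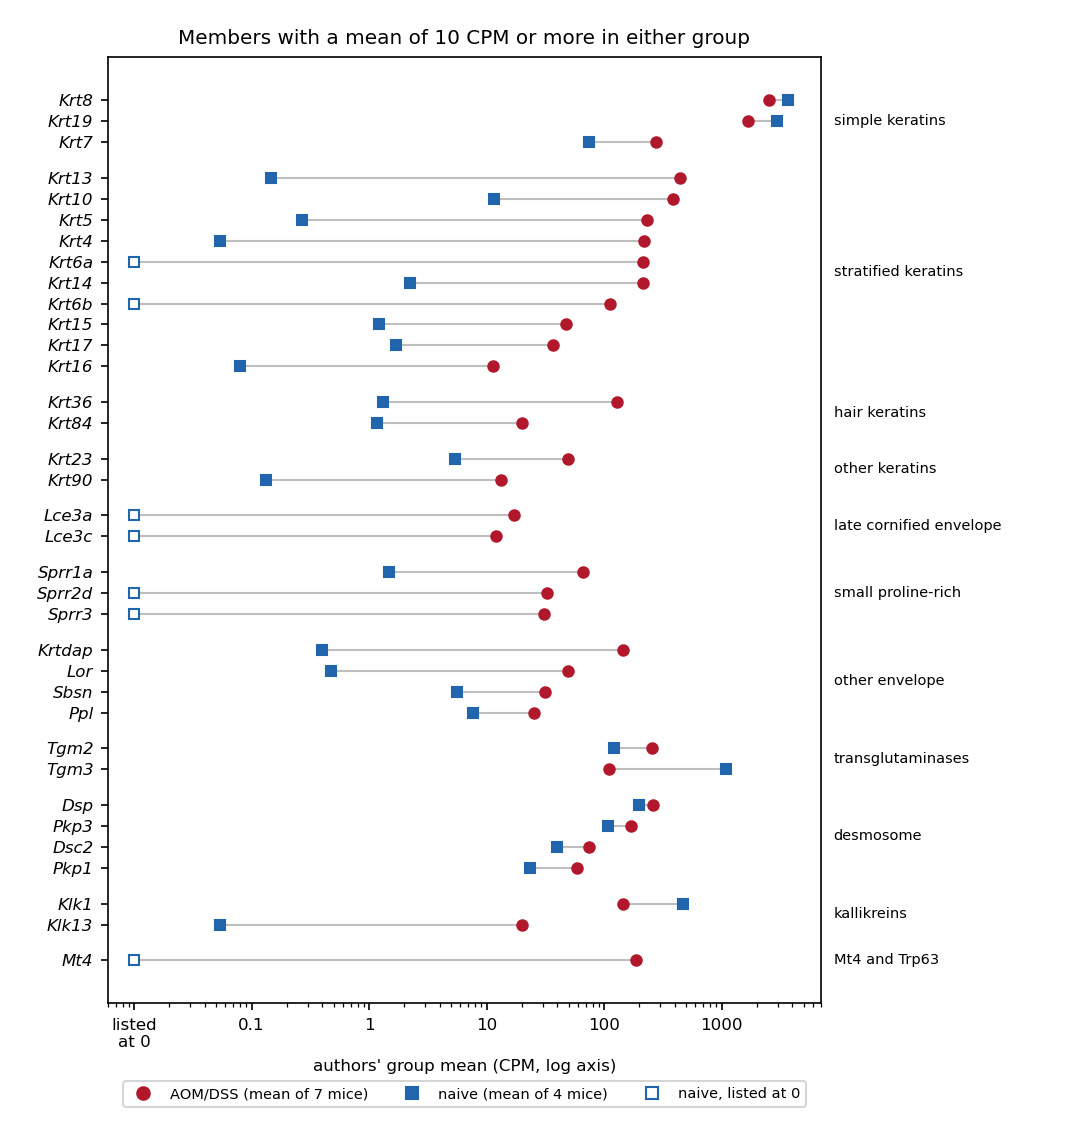
The authors' mean CPM in AOM/DSS (circles, 7 mice) and naive colon (squares, 4 mice) on a log axis, for the 35 genes with a mean of 10 CPM or more in either group, by family. Open squares mark genes with no naive reads. The grey lines are long for the stratified keratins, such as Krt13 (440 CPM in AOM/DSS, 0.148 CPM in naive colon), and short for Dsp (259 CPM in AOM/DSS, 198 CPM in naive colon).

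The sum of the listed keratins hardly differed between the groups while its make-up did. Summed over the 31 listed keratins, the means came to 6635 CPM in AOM/DSS and 6713 CPM in naive colon. The 3 simple keratins made up 67.5% of this sum in AOM/DSS and 99.5% in naive colon. The 10 stratified keratins made up 28.9% in AOM/DSS and 0.256% in naive colon, and the 12 hair keratins 2.43% in AOM/DSS and 0.0388% in naive colon. The median log2 ratio was -0.54 over the 3 simple keratins and 3.39 over the 22 stratified and hair keratins, a difference of -3.93. The sum and these shares leave out the keratins that are not in the list, Krt18 and Krt20 among them, so the full keratin total is not known.

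Hair keratins were mostly low. Of the 12 listed, 8 were higher, 4 lay within 2-fold and 9 had no naive reads. Krt36, a type I hair keratin, stood far above the rest with 128 CPM in AOM/DSS and 1.32 CPM in naive colon (ratio 97.4). Krt84, a type II hair keratin, followed with 20.0 CPM in AOM/DSS and 1.17 CPM in naive colon (ratio 17.0). The other 10 lay between 0.336 and 3.07 CPM in AOM/DSS. Krt81, Krt25, Krt35, Krt75, Krt34 and Krt71 were past 2-fold, while Krt86, Krt31, Krt83 and Krt32 were not, and among these 10 only Krt83 (0.514 CPM in AOM/DSS, 0.115 CPM in naive colon, ratio with 1 added 1.36) had naive reads. Reads per AOM/DSS library, lettered A to G from the deepest to the shallowest, could be recovered for 4 of the 6 past 2-fold, and the calls of all but Krt25 rested on 1 library. Without library D, Krt75 averaged 0.927 CPM in AOM/DSS and Krt71 0.853 CPM, and without library C, Krt34 averaged 0.694 CPM and Krt71 0.575 CPM, all within 2-fold.

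Keratin-associated proteins form the matrix between the filaments of the hair shaft. Of 58 annotated genes 6 were listed, all 6 at the edge of detection and without naive reads. Krtap3-3 (1.35 CPM) and Krtap8-1 (1.28 CPM) were past 2-fold in AOM/DSS, whereas Krtap13-1, Krtap9-3, Krtap11-1 and Krtap2-4 lay between 0.236 and 0.7995 CPM. The calls of Krtap3-3 and Krtap8-1 each rested on 1 library, since Krtap3-3 averaged 0.996 CPM in AOM/DSS without library B and Krtap8-1 0.182 CPM without library C.

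Of the 6 remaining keratins, 4 were higher. Krt23 averaged 49.7 CPM in AOM/DSS and 5.41 CPM in naive colon (ratio 9.18). Krt90 averaged 13.2 CPM in AOM/DSS and 0.134 CPM in naive colon (ratio with 1 added 12.5). Krt87 and Krt80 were past 2-fold at 7.73 and 5.04 CPM in AOM/DSS, against 2.88 and 1.75 CPM in naive colon (ratios 2.69 and 2.88). Krt12, the keratin of the cornea, was within 2-fold at 1.47 CPM in AOM/DSS and 0.359 CPM in naive colon (ratio with 1 added 1.82), as was Krt88 at 0.184 CPM in AOM/DSS with no naive reads.

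In the genome these genes lie in a few clusters (GRCm38, the build of the study's alignment, with positions from GENCODE M21). Each count covers only the stretch from the first to the last listed gene, so unlisted genes beyond its ends are left out. The epidermal differentiation complex on chromosome 3, which holds the Lce and Sprr genes with Ivl and Lor, gave 33 of the 39 annotated genes with such names, from Lor (start 92080271) to Lce3f (end 92993426). The type I keratin cluster on chromosome 11 gave 18 of 47 keratin and Krtap genes, from Krt25 (start 99315516) to Krt17 (end 100261029). The type II cluster on chromosome 15 gave 16 of 26 keratin genes, from Krt80 (start 101347444) to Krt8 (end 102004482). Outside these stretches, and not listed, lie Lce1m on chromosome 3, Krt222, Krt24 and Krt42 on chromosome 11, and Krt18 beside Krt8. Krt8, lower in AOM/DSS, thus shares a cluster with Krt5 and Krt6a, and Krt19 lies on chromosome 11 between Krt15 and Krt14, both of which were higher.

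The late cornified envelope genes were listed almost as a whole. Of 21 annotated, 20 were listed, none had a read in naive colon, and 17 were past 2-fold in AOM/DSS. Lce3a (17.0 CPM in AOM/DSS) and Lce3c (12.1 CPM) were the highest. Lce3f (8.50 CPM), Lce3e (8.05 CPM) and Lce3b (6.77 CPM) of the same subgroup followed, and Lce3d was at 0.628 CPM. The Lce1 subgroup ran in AOM/DSS from 0.317 CPM in Lce1l to 7.48 CPM in Lce1a1, with Lce1a2, Lce1b, Lce1f, Lce1d, Lce1g, Lce1c, Lce1e, Lce1i, Lce1h, Lce1k and Lce1j in between, and Lce6a stood at 0.596 CPM. Members of a subgroup are alike in sequence, so their single values are less certain than their sum of 99.5 CPM in AOM/DSS.

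The small proline-rich proteins are cross-linked into the envelope as spacers, and 8 of the 11 listed were higher. Sprr1a averaged 65.6 CPM in AOM/DSS and 1.47 CPM in naive colon (ratio 44.7). Sprr2d (32.7 CPM in AOM/DSS) and Sprr3 (30.7 CPM) had no naive reads. Sprr2h averaged 9.77 CPM in AOM/DSS and 0.0586 CPM in naive colon (ratio with 1 added 10.2). Sprr2b, at 3.97 CPM in AOM/DSS and 1.104 CPM in naive colon, had a ratio of 3.60. Sprr2i, Sprr2k and Sprr2f were past 2-fold at 1.31 to 3.68 CPM, and Sprr2g, Sprr2e and Sprr2j-ps stayed below 1 CPM, all 6 without naive reads. Without library D, Sprr2f averaged 0.657 CPM in AOM/DSS and was within 2-fold. As in the Lce genes, the Sprr2 copies resemble each other closely, so that the split among them is uncertain.

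Promoter letters differed between the families. The 100 bases before the start of each gene were read from RefSeq (GRCm38.p6) for 70 of the 98 genes and searched on both strands for TATAAA, the core of the TATA box. It occurred in 27 of these 70 (38.6%), in 4.51% of 5450 listed genes outside the names used and in 5.95% of all 27025 promoters. All 9 Sprr promoters held it, as did 5 of 6 for keratin-associated proteins and 5 of 8 for hair keratins, but only 1 of 19 for Lce genes and 0 of 10 for kallikreins. The letters TGANTCA, bound by AP-1 factors, occurred in 2 of 70 (2.86%) and in 2.71% of all promoters. These counts describe letters and not binding. For some genes the RefSeq start lay far from the GENCODE start, by 1518 bases in Krt14, 1360 in Krt7 and 529 in Klk1b5. Their windows may miss the start in use. The Sprr promoters with the highest AOM/DSS means are shown with those of Mt4, the metallothionein of stratified epithelia, and of Tgm3, which was lower in AOM/DSS. Krt13, the highest of the stratified keratins, is given for contrast, since its window holds no exact TATAAA. It does hold the similar letters cataaaa, and such variants were not searched for in any promoter. Capitals mark TATAAA, each line runs 5′ to 3′ and ends at the base before the RefSeq start.
Sprr1a, chr3:92485882-92485981, minus strand: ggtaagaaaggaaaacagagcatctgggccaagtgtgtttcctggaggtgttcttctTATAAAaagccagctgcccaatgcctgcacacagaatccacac
Sprr2d, chr3:92339040-92339139, plus strand: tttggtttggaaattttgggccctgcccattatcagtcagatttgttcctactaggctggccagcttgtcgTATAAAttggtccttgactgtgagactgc
Sprr3, chr3:92458721-92458820, minus strand: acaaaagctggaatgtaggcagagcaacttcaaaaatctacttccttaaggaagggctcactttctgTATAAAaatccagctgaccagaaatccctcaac
Mt4, chr8:94137104-94137203, plus strand: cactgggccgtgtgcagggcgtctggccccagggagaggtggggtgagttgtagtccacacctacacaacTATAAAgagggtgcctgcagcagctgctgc
Tgm3, chr2:130012240-130012339, plus strand: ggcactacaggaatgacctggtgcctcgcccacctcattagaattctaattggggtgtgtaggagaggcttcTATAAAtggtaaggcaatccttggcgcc
Krt13, chr11:100121567-100121666, minus strand: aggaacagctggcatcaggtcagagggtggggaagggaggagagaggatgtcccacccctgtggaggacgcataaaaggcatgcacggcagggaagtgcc

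Other envelope proteins were higher in 4 of 5 cases. Krtdap, made as keratinocytes differentiate, averaged 144 CPM in AOM/DSS and 0.395 CPM in naive colon, a ratio of 104 with 1 added. Lor, which encodes loricrin, the main envelope protein of epidermis, averaged 49.8 CPM in AOM/DSS and 0.477 CPM in naive colon (34.4 with 1 added). Sbsn, encoding suprabasin, averaged 31.3 CPM in AOM/DSS and 5.56 CPM in naive colon (ratio 5.64). Ppl, whose product periplakin ties the envelope to keratin filaments, averaged 25.1 CPM in AOM/DSS and 7.64 CPM in naive colon (ratio 3.29). Ivl, encoding involucrin, was within 2-fold at 0.753 CPM in AOM/DSS with no naive reads.

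Mt4 and Trp63, both typical of stratified epithelium, completed the set. Mt4 averaged 188 CPM in AOM/DSS and had no read in naive colon. Trp63, encoding the transcription factor p63 that layered epithelia require, averaged 5.52 CPM in AOM/DSS and 0.373 CPM in naive colon (4.75 with 1 added).

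Transglutaminases split by direction. Tgm3, known in mouse for cross-linking in epidermis and hair, was the most abundant of them in naive colon and averaged 111 CPM in AOM/DSS and 1087 CPM in naive colon, so that its naive mean was 9.77 times its AOM/DSS mean. Tgm1, the membrane-bound enzyme of keratinocytes, averaged 5.73 CPM in AOM/DSS with no naive reads. Tgm5, another epidermal enzyme, averaged 1.92 CPM in AOM/DSS and 0.335 CPM in naive colon (ratio with 1 added 2.19). Tgm2, the widely expressed tissue transglutaminase, averaged 254 CPM in AOM/DSS and 122 CPM in naive colon (ratio 2.09).

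Of the 9 listed desmosomal genes, 3 were higher past 2-fold and 6 lay within it. Dsp, whose product desmoplakin links the junction to keratin filaments, averaged 259 CPM in AOM/DSS and 198 CPM in naive colon (ratio 1.31). Pkp3, a plakophilin of most epithelia, averaged 169 CPM in AOM/DSS and 108 CPM in naive colon (ratio 1.56). Dsc2, the desmocollin of simple epithelia, averaged 74.3 CPM in AOM/DSS and 39.4 CPM in naive colon (ratio 1.88). All 3 were above their naive means and within 2-fold.

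The listed desmosomal genes typical of layered epithelia were past 2-fold or without naive reads, while Dsc1 and Dsg4, cadherins of upper epidermis and hair, were not in the list. Pkp1, a plakophilin of stratified epithelia, averaged 59.2 CPM in AOM/DSS and 23.6 CPM in naive colon (ratio 2.505). The cadherin Dsg3 of lower epidermal layers averaged 9.49 CPM in AOM/DSS and 0.0920 CPM in naive colon (ratio with 1 added 9.61), and Dsc3 averaged 2.95 CPM in AOM/DSS and 0.116 CPM in naive colon (3.54). Dsg1a, Dsg1b and Dsg1c, the near copies of desmoglein 1 in mouse, among which the split of reads is uncertain, stood at 0.289 to 0.935 CPM in AOM/DSS with no naive reads. Dsg1a, the highest of them, was past 2-fold at 1.06 to 1.09 CPM without library A, C, F or G. Jup, Pkp2, Dsg2 and Perp, which simple epithelia also use, were not in the list.

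Kallikreins split like the transglutaminases. Klk1, the tissue kallikrein that releases kinins, averaged 146 CPM in AOM/DSS and 469 CPM in naive colon (ratio 0.312). Klk13 averaged 20.0 CPM in AOM/DSS and 0.0536 CPM in naive colon (ratio with 1 added 20.0), and Klk8 averaged 7.12 CPM in AOM/DSS and 1.26 CPM in naive colon (ratio 5.67). Klk9 (6.57 CPM in AOM/DSS), Klk11, Klk12 and Klk6 were past 2-fold with no naive reads, and Klk5, a protease of epidermal shedding, was at 0.219 CPM. Klk1b4 and Klk1b5, close relatives of Klk1, were the only other members below their naive means. They stood at 0.0296 and 0.0142 CPM in AOM/DSS, against 0.593 and 0.883 CPM in naive colon (ratios with 1 added 0.646 and 0.538). In neither group were these means sums of whole reads, and among such close relatives the split of reads is uncertain.

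Naive values could be split by library for 23 of the 31 members that had naive reads and a naive mean of 12 CPM or less, those whose mean was a unique sum of whole reads. In all 23 the AOM/DSS mean was above the highest naive library. The list was limited by p, which favors such a result, so it is no support. A mean over 7 libraries also hides their spread. In Krt83, AOM/DSS libraries D and F stood at 0.213 and 0.225 CPM, against 0.351 CPM in the highest naive library. In Tgm5 the lowest AOM/DSS library (0.902 CPM) was above the highest naive library (0.669 CPM). The 8 that could not be split include Klk1b4 and Klk1b5, whose AOM/DSS means were below their naive means, beside Krtdap, Krt10, Krt80, Sprr2b, Sbsn and Krt12. Reads occurred in all 4 naive libraries for 10 of the 23. Krt14 stood at 0.799, 1.93, 2.92 and 3.21 CPM in the naive libraries (2.21 ± 1.09, SD, n = 4). Krt15 averaged 1.22 ± 0.386 CPM, Krt17 1.70 ± 0.536 CPM and Krt36 1.32 ± 0.964 CPM in naive colon (SD, n = 4 each). Ppl averaged 7.64 ± 1.77 CPM there (SD, n = 4). These genes were thus low but present in every naive library.

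The other 13 lacked reads in at least 1 naive library. Krt13 had 5 naive reads in all, in 2 libraries, and Krt4, Krt16, Krt90 and Klk13 each had reads in a single naive library, the same one. Krt5 had 3 reads in each of 3 naive libraries. Lor had 15 naive reads, 11 of them in 1 library, which gave 0.477 ± 0.676 CPM (SD, n = 4). For such genes the naive mean rests on a handful of reads, and a ratio to it would carry a wide counting error.

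**Figure D3:**
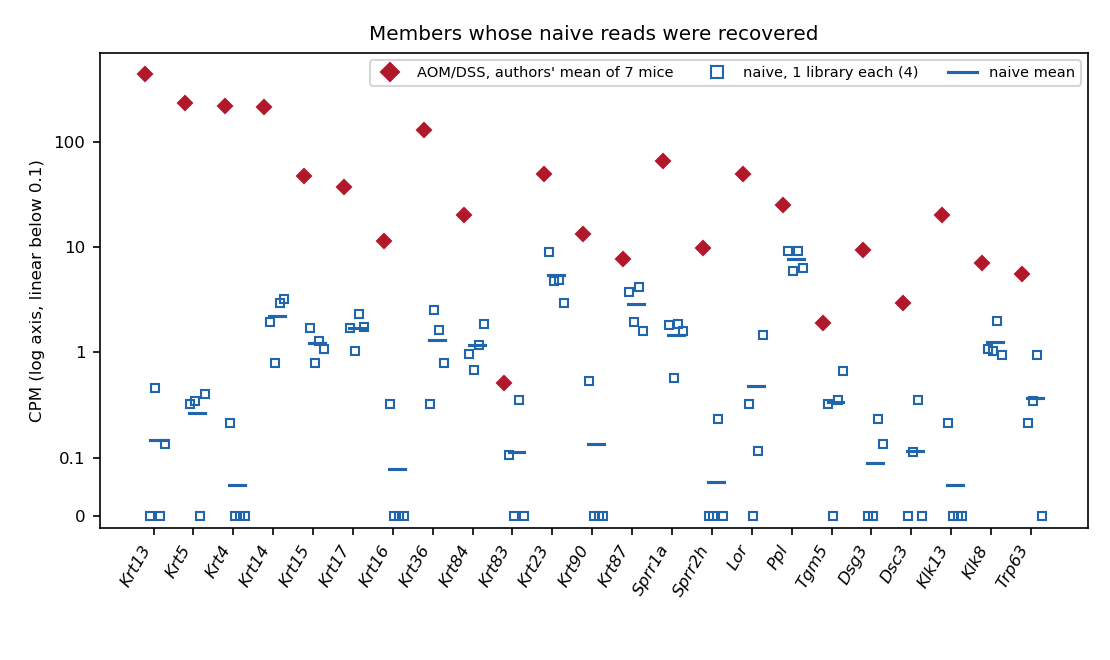
CPM on a log axis (linear below 0.1) for the 23 genes whose naive reads could be recovered. Red diamonds are the authors' AOM/DSS means, open squares the 4 naive libraries and blue bars their means. Every diamond lies above all 4 squares of its gene, by the least in Krt83 (0.514 CPM against a highest naive library of 0.351 CPM).

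In AOM/DSS the reads could be split for 26 of the 37 members at 2 CPM or less, and they were spread unevenly over the 7 libraries. The libraries go by letters, since the means do not tie them to replicate numbers. Over the 26 genes the reads came to 61 in A, 424 in B, 532 in C, 327 in D, 206 in E, 24 in F and 48 in G. Library A was the deepest of all (10837000 reads) and held 3.76% of these reads, while C held 32.8%. Among 840 other genes split in the same way, the shares ran from 11.2% in G to 16.3% in B. Of the 26 genes, 12 (46.2%) had no reads in A, F and G, against 11.1% of the 840. Naive reads were absent for 23 of the 26, and over these 23 the shares ran from 0.74% in F to 34.9% in C, while over 237 genes outside the names used that were listed at 0 in naive they ran from 8.15% in F to 20.5% in B. No reads in A, F and G were found for 52.2% of the 23 and 8.86% of the 237. A, F and G are the libraries with the fewest reads of these same 26 genes. Both contrasts on them therefore describe the layout and are no support for it.

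Single genes showed the same layout. Ivl had 0, 13, 12, 16, 11, 0 and 0 reads in libraries A to G, and 0 in each naive library. The 3 AOM/DSS libraries without reads therefore overlapped with naive, and the mean of 0.753 CPM came from the other 4. Klk12 had 0, 41, 42, 25, 11, 0 and 0 reads. Krt71 had 0, 6, 45, 24, 3, 0 and 0 reads, and Krt25 had 1, 37, 65, 32, 7, 0 and 1. Each of these 3 genes also had no naive reads, so that A, F and G lay at or near the naive level.

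Within that layout some genes were held by 1 library. Dsg1a had 45 of its 67 reads in B, Krt31 had 37 of 48 in B, and Krtap8-1 had 84 of 94 in C. Others reached every library, among them Tgm5 (14, 25, 33, 25, 17, 8 and 11 reads) and Krt12 (17, 24, 21, 10, 20, 4 and 7). Higher means could not be split, so whether Krt13, Krt5 or Lor followed the same libraries was not tested, and the counts above cannot be given without any 1 of these libraries for all 98 genes. Which tissue, animal or handling the unevenness goes with was not tested.

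**Figure D4:**
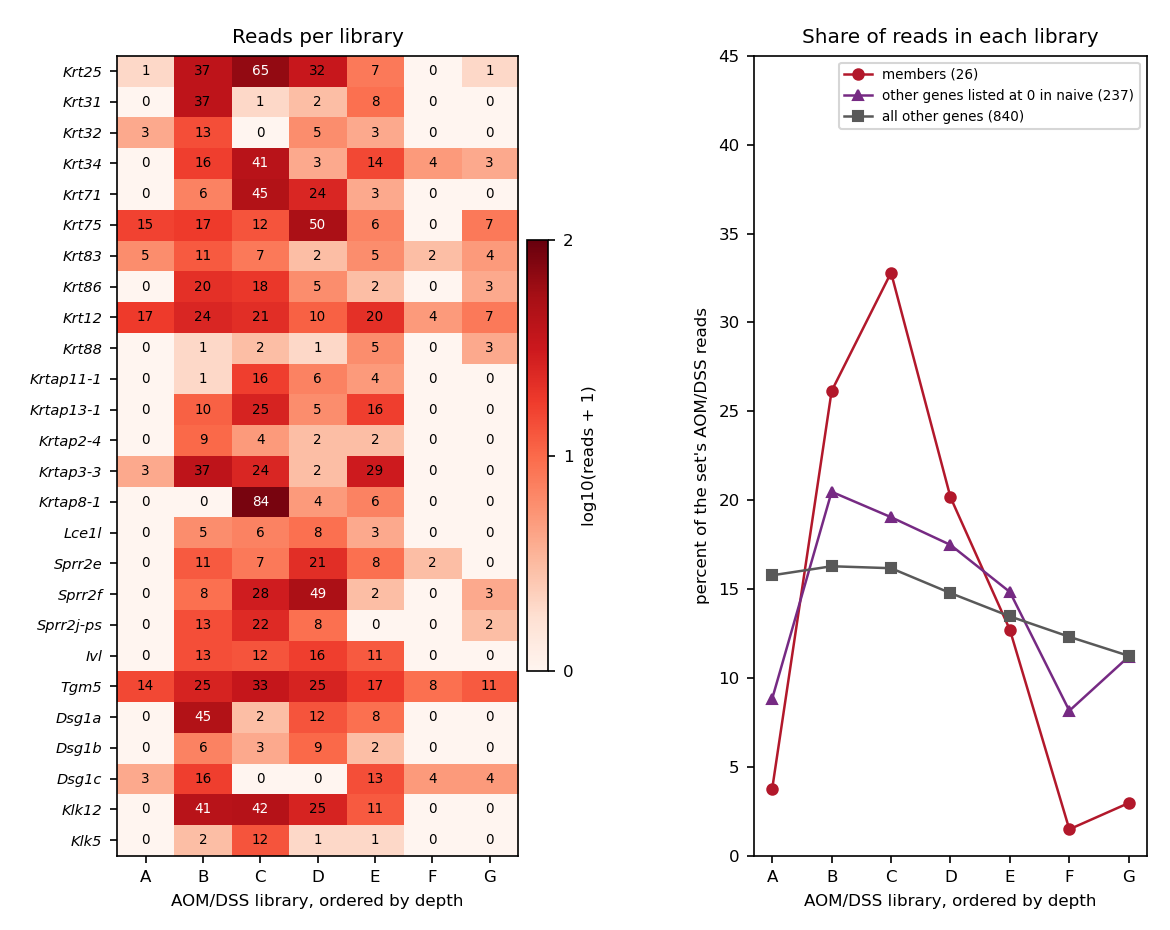
Left, reads per gene in each of the 7 AOM/DSS libraries, A to G from the deepest to the shallowest, for the 26 genes whose reads could be recovered, with colour on a log10 scale. Right, the percent of reads in each library for these 26 genes, for 237 genes outside the names used that had no naive reads and for all 840 genes outside the names used. The members peak at 32.8% in library C and reach 1.48% in F, while the 840 genes stay between 11.2% and 16.3%.

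Genes outside the names used were set beside these values. Their lists were written with earlier results of these data known, so the counts are no independent support. Of all listed genes, 20.9% were higher and 9.75% lower past 2-fold, which holds for comparison with each list below. Of 34 further genes known from stratified squamous epithelium, 25 were listed, 21 of them higher and none lower past 2-fold, with a median log2 ratio of 2.64. S100a14 averaged 556 CPM in AOM/DSS and 390 CPM in naive colon. Sfn, encoding stratifin, averaged 440 CPM in AOM/DSS and 189 CPM in naive colon. Fabp5, a fatty acid binding protein of epidermis, averaged 229 CPM in AOM/DSS and 12.1 CPM in naive colon. Both lie past 2-fold, and S100a14 does not. Among 21 inhibitors of proteases found in cornified epithelium 17 were listed, 11 of them higher and none lower, with a median log2 ratio of 2.13. Slpi averaged 796 CPM in AOM/DSS and 22.1 CPM in naive colon, while Serpinb1a averaged 350 CPM in AOM/DSS and 502 CPM in naive colon. Of 24 regulators of squamous cells 11 were listed, with 8 higher and 1 lower. That 1 was Klf4, a factor of both colonocytes and keratinocytes, at 210 CPM in AOM/DSS and 623 CPM in naive colon.

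Of 12 genes of hair follicles other than keratins, 5 were listed, and the other 7 have no value here. Of the 5, 2 were higher (Dlx3 and Prr9), 1 was lower and 2 lay within 2-fold. Dlx3 averaged 10.5 CPM in AOM/DSS and 0.144 CPM in naive colon. Selenbp1, which the colon also makes, was lower at 85.2 CPM in AOM/DSS and 721 CPM in naive colon. Of 9 genes of hemidesmosomes and their anchorage, which fix basal cells to the matrix, 6 were listed, 3 of them higher and none lower, with a median log2 ratio of 1.00. Itga6 averaged 223 CPM in AOM/DSS and 127 CPM in naive colon. Of 15 other intermediate filament and linker genes 9 were listed, with 1 higher, 1 lower and a median log2 ratio of -0.67. Lmnb1, encoding lamin B1, was the higher of them at 132 CPM in AOM/DSS and 55.7 CPM in naive colon.

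The tissue itself differed between the groups in other layers too. Colon epithelium was present in both, with Lgals4 at 1161 CPM in AOM/DSS and 2406 CPM in naive colon, and 5 of the 10 listed genes of a 17-gene list for it were lower past 2-fold and none was higher. Car1 averaged 108 CPM in AOM/DSS and 1236 CPM in naive colon. All 12 smooth muscle genes were listed and lower, with a summed mean of 5822 CPM in AOM/DSS and 14823 CPM in naive colon. Acta2 averaged 1690 CPM in AOM/DSS and 3546 CPM in naive colon. Of 11 mesothelial genes 3 were listed, with Msln higher and Calb2 lower, and none of the 3 exceeded 13.6 CPM in either group. The part that these shifts had in the values of keratin, envelope and desmosomal genes was not tested.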

How the data were processed

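RNA of 11 colon samples (7 AOM/DSS, 4 naive) was extracted with a Qiagen kit, and libraries were made with the QuantSeq FWD 3′ mRNA kit of Lexogen. The authors trimmed adapters, aligned reads with STAR to mm10, quantified them to Ensembl transcripts and normalized the gene counts in Partek Flow. Partek, cutadapt and STAR are named in the submitters' processing notes. The single table holds, for 7868 genes, the authors' group means, deposited here in CPM as judged from their smallest steps, and 3 columns of the authors' own comparison (p, FDR and fold), which were neither used nor printed. A mean of 0.0001 stands for 0. No value per mouse is given.

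The ratio (AOM/DSS + 1)/(naive + 1) was computed from the means and called at 2-fold. Every listed member is named; a plain ratio is given where both means are 1 or more, a ratio with 1 added where a mean is lower, and none where a mean is 0. Simple keratins, members past 2-fold with a mean of 10 or more and core desmosomal genes have full values. Of each other list at most the 4 genes with the highest means were named. Names were matched to GENCODE M21, which holds 7727 of them. Members, families and lists were chosen with earlier results of these data known.

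Of the low means, those that could be split equalled 0.0001 plus whole reads times a fixed step per library, with 7 steps in AOM/DSS and 4 in naive. Means up to 2 CPM (AOM/DSS, tolerance 1e-14) and 12 CPM (naive, tolerance 2e-13) were searched for sums of whole reads. A single solution was found for 866 of 1392 and 1772 of 3240 means, and more than 1 for none. The rest had no solution and were not split, so the split genes are a selection. The search was checked on simulated reads. Replicates are biological by their labels, and no test was run, because the table is already limited by p. Alternatives were other added values, filters, fold limits and centring. Python 3.11.15, numpy 2.4.6, pandas 2.3.3 and matplotlib 3.10.9 were used.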

Additional observations from a re-analysis of the deposited data

How the results depend on the processing

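No result changed direction in the alternatives run, and the counts changed in size. Members without naive reads could not turn lower under another added value, filter or fold limit. With 0.1 CPM added in place of 1, 89 members were higher (against 31.0% of all listed genes) and 4 lower, the median log2 ratio of members was 3.97, and the simple keratins stood -5.22 from the stratified and hair keratins. With 10 CPM added these values were 27 (against 7.35% of all listed genes), 2, 0.37 and -1.79. Among genes with a higher mean of at least 10 CPM they were 28 (against 18.4% of all such genes), 2, 3.82 and -6.47, and since members without naive reads pass that filter through AOM/DSS alone, these values support nothing. Among genes with both means at 1 CPM or more they were 17 (against 16.9% of all such genes), 2, 1.44 and -5.23. With the median of all listed genes set to 0 they were 55 (against 14.3% of all listed genes), 4, 1.23 and -3.93. At 4-fold 40 members were higher (against 7.51% of all listed genes) and 1 lower, and at 1.5-fold 82 (against 36.7%) and 5. Of 223 values of 34 single genes under these alternatives, 212 kept their side of the limit, 11 did not and 0 changed direction.

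No paired analysis was possible because the table holds group means without replicate numbers. Leaving out each mouse was possible only where reads were recovered, and was added after the data were seen. Of 80 members with known naive reads 60 were higher, and the count was 60 to 60 without each naive library in turn, but 57 of the 80 had no naive reads and could not change. Of 26 members with known AOM/DSS reads 9 were higher, and the count was 6 to 10 without each AOM/DSS library, lowest without library D. Depth limits members near 1 CPM, and ratios against naive means under 1 CPM rest on the added value.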
